A study of Homo sapiens with 15 samples.

Results

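The respiratory chain and ATP synthase of the inner mitochondrial membrane were followed through the RNA of their nuclear-encoded subunits in A549, an established line from a human lung adenocarcinoma, kept at an air-liquid interface and exposed to dimethylamine vapour. Members were genes whose current symbol starts with the letters used for subunits of complex I (NDUFA, NDUFB, NDUFC, NDUFS, NDUFV), complex II (SDHA to SDHD), complex III (UQCR), complex IV (COX4 to COX8) or complex V (ATP5F, ATP5M, ATP5P), which are protein coding and which are alone on their row of the array annotation. Where a gene had several rows, the row with the highest mean over all arrays was taken. This gave 76 members among 17618 protein-coding genes and 135750 transcript clusters (the array's units for a gene or other transcript), with 33 genes in complex I, 3 in complex II, 8 in complex III, 16 in complex IV and 16 in complex V. Of the other genes with these letters, ATP5F1E, ATP5MK, COX7C, NDUFC2, NDUFS1 and NDUFS8 shared a row with another symbol, ATP5MF-PTCD1 and NDUFC2-KCTD14 are read-through genes, and SDHB and UQCRFS1 were not analysed here. NDUFA4 and NDUFA4L2 carry the newer symbols COXFA4 and COXFA4L2 and so fell outside the rule.

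The series held 15 Clariom D arrays in 5 groups of 3. LD cells received dimethylamine at 14.9 ppm, MD cells at 41.1 ppm and HD cells at 81.7 ppm, each for 60 min followed by 23 h of recovery, in 3 such rounds within 72 h. The clean air control (CA) had the flow with no dimethylamine in it, and cells of the non-exposed control (NEC) stayed without any flow. Every culture was A549 on a porous membrane, serum was withdrawn before exposure, and every array measured RNA of 2 pooled wells, so that errors and p-values describe the spread between such pools of 1 cell line. The labels give exposure plate 1 for every LD array, plate 5 for MD and plate 6 for HD, and they spread CA and NEC over these plates with 1 array of each on every plate. The layout given in the methods has fewer exposed wells on a plate than 3 pools need, so a plate of the labels may stand for more than a single physical plate, and values by plate hold for the plate as labelled.

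In the chain, complexes I and II feed electrons from NADH and succinate into ubiquinone, complex III passes them to cytochrome c and complex IV passes them to oxygen. Complexes I, III and IV pump protons, and complex V, the ATP synthase, lets the protons return through a ring of c subunits to drive ATP synthesis. Except for complex II, each complex joins nuclear-encoded subunits with a few subunits made from mitochondrial DNA, and none of the 13 subunits encoded there was analysed here. Nuclear subunit genes are often described as targets of the transcription factors NRF1, GABP of the ETS family, YY1 and CREB.

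Values were log2 signals, on which a difference of 1 is a doubling. The negative control clusters had a mean level of 4.67, with array medians from 4.30 to 4.85. The array-wide signal differed between arrays, and the mean of the 5992 bright protein-coding genes ran from 10.46 in LD replicate 3 to 11.15 in HD replicate 3. The mean over the 76 members followed it, from 11.22 in LD replicate 3 to 12.06 in MD replicate 3, with a correlation of 0.96 over the 15 arrays, which both measures share. LD replicate 3 held the lowest value of 39 members and MD replicate 3 the highest value of 28. In its TempO-Seq data the paper left out the sample with the title of MD replicate 3 as an outlier. The array of that title was kept here. All 5 measured epithelial markers lay above the negative controls in every group, among them KRT8 and KRT18. Of the alveolar type II markers, 1 of 6 did, and the surfactant genes SFTPC, SFTPB and SFTPA1 lay below the controls. Of 8 leukocyte markers 4 lay above the controls in every group, and their mean per group was between 5.94 in LD and 6.32 in MD.

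**Figure D1:**
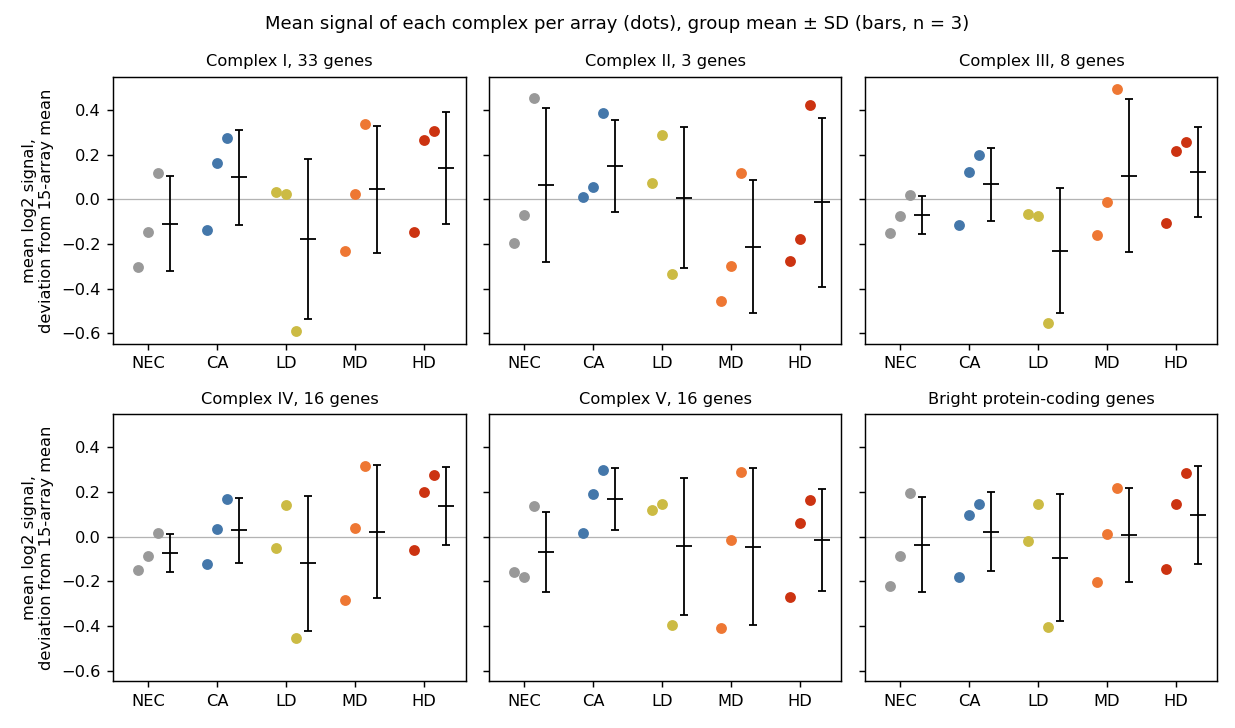
Mean log2 signal of the members of each complex on each array, as a deviation from the mean of the 15 arrays (vertical axis), for the 5 groups (dots, 1 per array; bars, group mean and SD), with the bright protein-coding genes in the last panel. LD replicate 3, at 10.46 for the bright genes, is the lowest array for them and for complexes I, III and IV, and the group bars of every complex overlap.

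The data showed no subunit gene that differed between groups beyond the spread of the arrays after adjustment over all clusters. With limma, 0 of 76 members passed an adjusted p of 0.05 in HD, MD, LD or NEC against CA, in the slope on concentration or in the test across the 5 groups. Over all 135750 clusters the same rule called 0.0435% for HD against CA, 0% for MD, 0% for LD and 0% for NEC, 0.0744% for the slope and 0.109% across the 5 groups. No member differed from CA by more than 2-fold in any group. Genes are further described by whether all arrays of a group lay apart from those of CA. With 3 arrays against 3, an exact permutation test gives such a separation no less than 0.10. Its share over all clusters was not counted, so it serves as a description of single genes only. By the study's methods the arrays started from a set mass of total RNA, and the signals were normalised. A value is thus a level relative to the other RNA of the culture. It gives neither the number of cells nor the amount of RNA per cell. The differences ran from −0.72 (ATP5MC3) to 0.61 (NDUFA3) in HD, from −0.62 to 0.35 in MD, from −0.63 to 0.28 in LD and from −0.71 to 0.33 in NEC, with a median standard error of 0.25. The 95% interval of the difference, not adjusted for the number of genes, lay within a 2-fold change either way for 68 of 76 members in HD, 70 in MD, 63 in LD and 65 in NEC.

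At an unadjusted p below 0.05, HD held 0 members above and 1 below CA, where 5.4% of the protein-coding genes lay above and 3.22% below by this rule. MD held 0 above and 2 below (protein-coding genes 2.9% and 2.88%), LD 0 above and 4 below (0.704% and 7.62%) and NEC 0 above and 3 below (1.27% and 2.32%). With the exposure plate as a replicate block the counts below CA were 7 in HD, 0 in MD, 0 in LD and 2 in NEC. The counts above CA were 0 in each of them. The share of protein-coding genes under the block was not computed, so the shares given before do not apply to these counts. On concentration, 1 member had a positive and 3 had a negative slope at this level, beside 8.29% and 2.61% of the protein-coding genes. The test across the 5 groups held 3 members (NDUFV2, ATP5MC3 and NDUFB4), beside 10.7% of the protein-coding genes.

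Within the HD comparison, the complexes leaned in different directions. Of the complex I genes 23 of 33 had a higher mean in HD than in CA (median 0.08), of complex III 5 of 8 (median 0.12) and of complex IV 13 of 16 (median 0.10), whereas of complex V 13 of 16 had a lower mean (median −0.17) and of complex II 2 of 3 (median −0.25). The median over all 76 members was 0.06, over all clusters −0.01 and over the protein-coding genes 0.03. In MD the medians were −0.07 for complex I, −0.31 for complex II, 0.05 for complex III, 0.01 for complex IV and −0.14 for complex V. These medians carry the array-wide signal with them: the mean of bright genes was 10.96 ± 0.22 in HD, 10.87 ± 0.21 in MD and 10.89 ± 0.18 in CA (SD, n = 3), and its part in the medians was not tested apart from the scaling. With arrays scaled to equal bright genes the HD medians were 0.01 for complex I, −0.33 for complex II, 0.05 for complex III, 0.03 for complex IV and −0.24 for complex V. With the exposure plate as a replicate block the HD median over the members was −0.13, and 25 members were above CA in place of 45. By complex the medians were then −0.14 for complex I, −0.59 for complex II, −0.05 for complex III, 0.0037 for complex IV and −0.35 for complex V, so that complexes I and III no longer lay above CA. Against the single CA array of plate 6 the medians of all 5 complexes lay below 0, from −0.48 for complex II to −0.013 for complex IV.

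**Figure D2:**
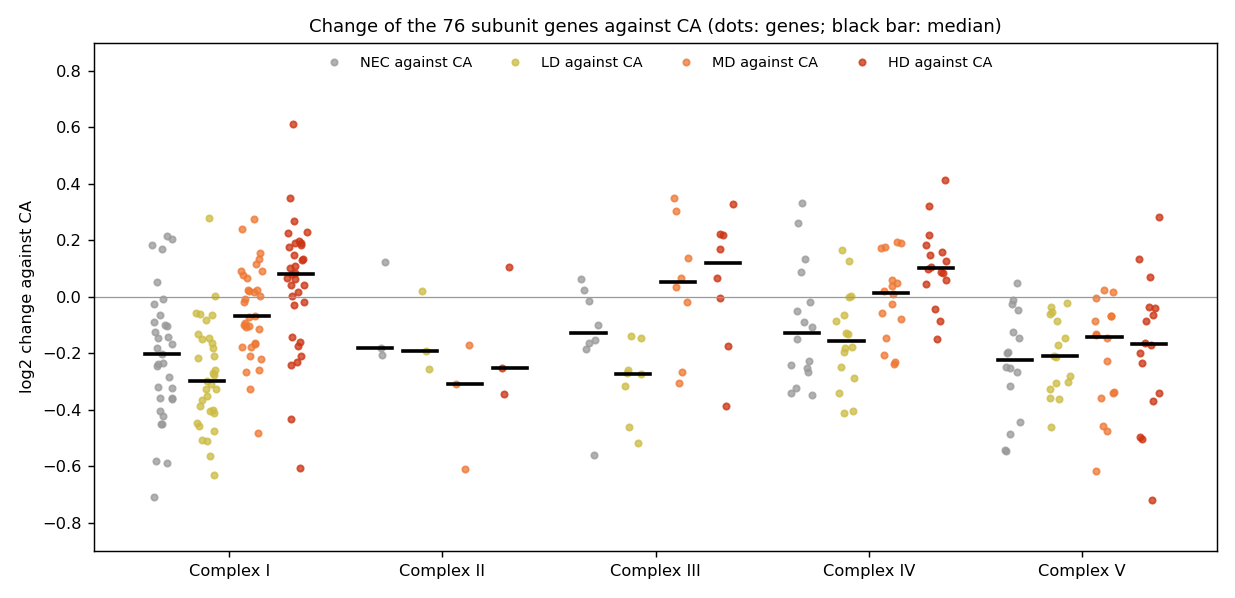
Difference from CA on the log2 scale (vertical axis) of each of the 76 subunit genes (dots), by complex and by group, with the median of each complex (black bars). The dots stay between −0.72 and 0.61, and the medians of complexes I, III and IV lie above 0 in HD and below 0 in LD and NEC, while that of complex V is below 0 in all 4 comparisons.

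A difference between complexes taken within an array is free of a shift that is equal for all genes. The arrays did not differ by an equal shift. Their median over all clusters stayed between 4.47 and 4.55, while the mean of bright genes ran from 10.46 to 11.15. A part that varies with the signal level is not removed by the difference, and it was not tested. The mean of the complex IV genes minus that of the complex V genes was −3.44, −3.46 and −3.43 on the 3 CA arrays. It was −3.09, −3.17 and −3.19 on the HD arrays and −3.18, −3.25 and −3.28 on the MD arrays. All HD and MD arrays thus lay above all CA arrays, with group means 0.29 and 0.21 above that of CA. The LD arrays, at −3.47, −3.31 and −3.36, overlapped with CA. The NEC arrays, at −3.29, −3.21 and −3.42, lay between CA and HD without overlap with either and overlapped with MD. No test was made of such a mean over members, and these differences were not among the results listed beforehand. How often other sets of genes lie apart in this way was not counted. Complex V, whose median lay below CA in HD and MD, is subtracted in each such difference. Those of complexes I, III and IV share its means (13.88 in CA, 13.70 in HD and 13.67 in MD). They are not separate results.

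Complex I minus complex V gave −2.79, −2.67 and −2.66 on the CA arrays and −2.51, −2.43 and −2.50 on the HD arrays, again without overlap. The MD arrays had −2.46, −2.60 and −2.59, all above CA, while NEC, from −2.78 to −2.60, and LD, from −2.83 to −2.73, overlapped with CA. For complex III minus complex V the CA arrays had −0.74, −0.68 and −0.71 and the HD arrays −0.44, −0.45 and −0.51. The MD arrays, from −0.61 to −0.36, lay above CA too. The LD arrays, from −0.83 to −0.77, lay below CA, and the NEC arrays, from −0.72 to −0.50, overlapped with CA. Complex II, with 3 genes, showed no such separation in HD, with −2.06, −2.29 and −1.79 beside −2.06, −2.19 and −1.96 in CA.

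These within-array differences are also described beside the array-wide signal, the brightest genes and the plates, whose parts in them were not tested. Replicate 1 of CA, MD, HD and NEC had nearly the same mean of bright genes, at 10.69, 10.66, 10.72 and 10.64. Their complex IV minus complex V differences were, in this order, −3.44, −3.18, −3.09 and −3.29. LD replicate 1, with bright genes at 10.84, had −3.47. Each of these values is from a single array. Without the 6 members whose mean was 16 or more, the HD mean was 0.29 above CA for complex IV, 0.29 for complex III and 0.21 for complex I. With medians of centred values in place of means it was 0.30, 0.27 and 0.27. On plate 6 alone, the 3 HD arrays lay above the single CA array of that plate, at −3.43, for complex IV minus complex V. All HD arrays came from that plate, and a part of plate 6 beyond its CA array cannot be told apart from the concentration.

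**Figure D3:**
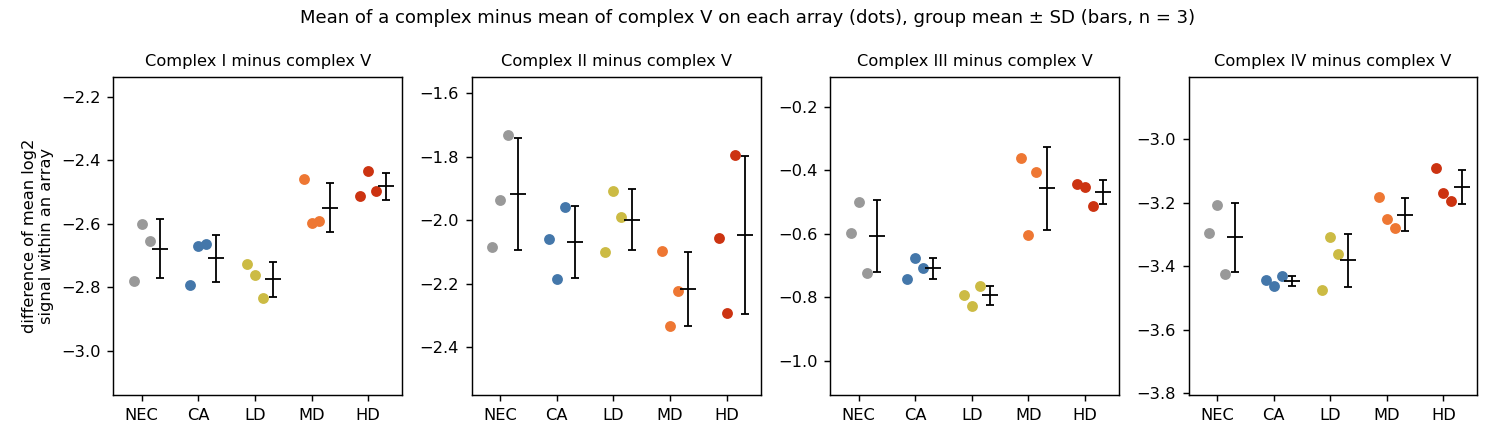
Mean log2 signal of complex I, II, III or IV minus that of complex V on each array (vertical axis; dots, 1 per array; bars, group mean and SD) for the 5 groups. In the panels of complexes I, III and IV all HD and MD arrays lie above the 3 CA arrays. For complex IV they run from −3.28 to −3.09, beside −3.46 to −3.43 in CA. In the panel of complex II each of HD, MD, LD and NEC overlaps with CA.

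In complex V, the gene with the smallest p in HD was ATP5MC3, a gene of the c subunit. ATP5MC1, ATP5MC2 and ATP5MC3 each encode a precursor of the same mature c subunit of the proton-conducting ring and differ in the peptide that directs import into mitochondria. ATP5MC3 had signals of 12.82, 12.64 and 12.88 in CA, of 11.81, 12.08 and 12.29 in HD and of 12.06, 12.13 and 12.31 in MD. Every HD and MD array lay below every CA array. LD (12.80, 12.71 and 12.19) and NEC (12.75, 12.31 and 12.52) overlapped with CA. The difference from CA was −0.72 in HD (SE 0.21, adjusted p = 0.459) and −0.62 in MD (SE 0.21, adjusted p = 0.730), and the slope was −0.09 per 10 ppm (SE 0.02, adjusted p = 0.316). None of these passed the threshold, and each was the smallest p of complex V in its comparison.

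ATP5MC2 did not share this pattern, with 13.21, 13.40 and 13.63 in CA and 13.52, 13.92 and 13.66 in HD, which overlapped (0.28, SE 0.30). ATP5MC1 had 16.01, 16.27 and 16.42 in CA and 15.92, 16.01 and 16.17 in HD, with overlap as well (−0.20, SE 0.23). Within an array, ATP5MC2 minus ATP5MC3 was 0.39, 0.76 and 0.75 in CA and 1.71, 1.83 and 1.37 in HD, so that the groups were apart by 1.00 (SE 0.19). MD had 0.58, 1.07 and 1.66 and overlapped with CA. LD had 0.39, 0.60 and 0.63, within the range of CA, and NEC ran from −0.26 to 0.79. ATP5MC1 minus ATP5MC3 rested on the same ATP5MC3 values. It was 3.19 to 3.63 in CA and 3.88 to 4.11 in HD, a shift of 0.52 (SE 0.15). ATP5MC2 minus ATP5MC1, without ATP5MC3, was −2.80, −2.87 and −2.79 in CA and −2.40, −2.09 and −2.52 in HD. These groups lay apart too, by 0.48 (SE 0.13). A two-sided exact permutation test gave p = 0.10 for each of these HD shifts, the smallest that 3 arrays against 3 allow, and 0.40 after adjustment over the 12 such comparisons. This test was added after the values were seen. In HD, ATP5MC3 had the lowest and ATP5MC2 the highest difference from CA of the 16 complex V genes. The shift between them follows from these values and adds no separate result. The shifts describe the arrays measured, and not which of the genes was steady.

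**Figure D4:**
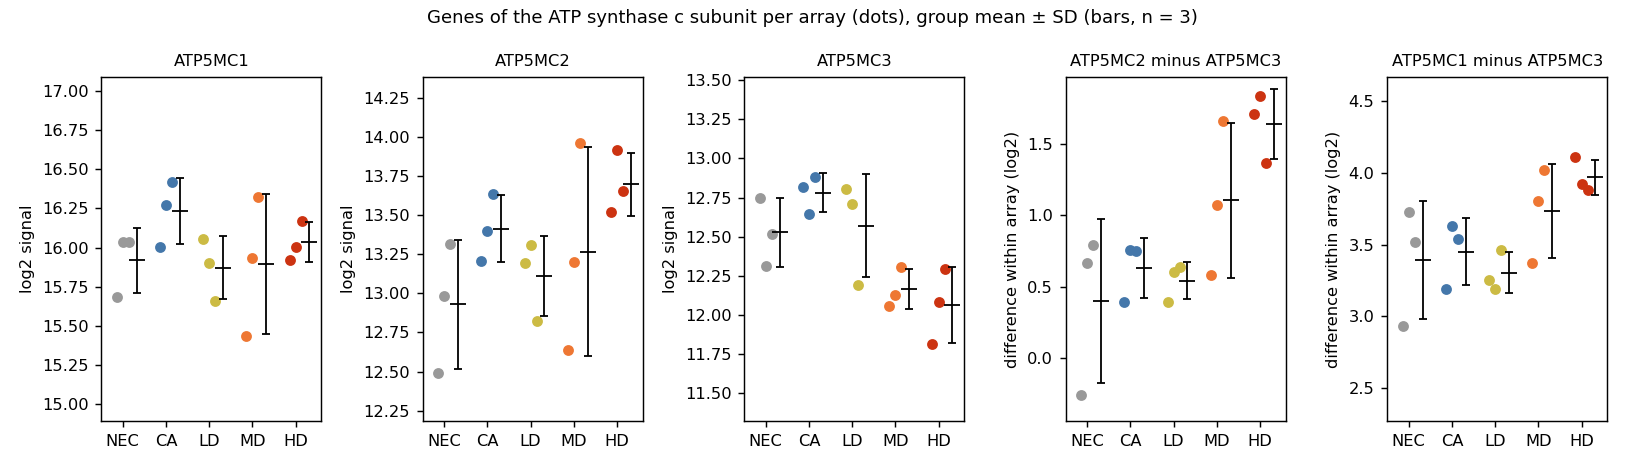
Log2 signal of the genes of the c subunit on each array, and the difference of ATP5MC2 and of ATP5MC1 from ATP5MC3 within each array (vertical axes; dots, 1 per array; bars, group mean and SD), for the 5 groups. The ATP5MC3 signal in HD (11.81 to 12.29) and MD (12.06 to 12.31) lies below CA (12.64 to 12.88), and the difference of ATP5MC2 from ATP5MC3 in HD (1.37 to 1.83) lies above CA (0.39 to 0.76).

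The promoters of the c subunit genes ATP5MC1 and ATP5MC2 are shown beside that of ATP5F1C, the next gene of complex V by p. In HD the arrays of ATP5MC1 and ATP5MC2 overlapped with CA, so no difference in direction is shown for them. The bases before the gene start were taken from RefSeq (GRCh38.p14), which held a promoter window for 62 of the 76 members and none for ATP5MC3 or NDUFB5. Each stretch has 250 bases and is written 5′ to 3′ on the strand of the gene. Capitals mark a match to NRF1 (GCGCATGCG) or CREB (TGACGTCA) on either strand. The stretches are chr17:48892537-48892786 on the plus strand for ATP5MC1, chr12:53676084-53676333 on the minus strand for ATP5MC2 and chr10:7787927-7788176 on the plus strand for ATP5F1C.
ATP5MC1: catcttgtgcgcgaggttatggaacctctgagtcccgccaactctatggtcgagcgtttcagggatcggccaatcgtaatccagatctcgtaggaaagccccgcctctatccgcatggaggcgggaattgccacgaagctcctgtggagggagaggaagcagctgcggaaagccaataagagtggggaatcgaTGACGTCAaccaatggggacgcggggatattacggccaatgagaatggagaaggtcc
ATP5MC2: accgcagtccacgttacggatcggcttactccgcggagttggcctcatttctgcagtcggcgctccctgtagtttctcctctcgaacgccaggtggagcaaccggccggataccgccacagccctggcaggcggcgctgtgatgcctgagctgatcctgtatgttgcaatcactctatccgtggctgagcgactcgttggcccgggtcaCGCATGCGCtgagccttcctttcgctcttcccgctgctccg
ATP5F1C: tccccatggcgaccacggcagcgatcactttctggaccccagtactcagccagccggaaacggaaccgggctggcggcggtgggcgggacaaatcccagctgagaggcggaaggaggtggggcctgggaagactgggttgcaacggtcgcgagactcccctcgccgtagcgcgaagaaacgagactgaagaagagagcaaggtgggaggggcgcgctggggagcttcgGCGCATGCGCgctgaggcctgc
ATP5MC1 thus held a CREB match and no NRF1 match, and ATP5MC2 and ATP5F1C the reverse. In ATP5F1C 2 overlapping NRF1 matches on opposite strands form the capitals.

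Over whole windows, from 250 bases before to 50 after the start, the NRF1 letters were found in 10 of the 62 member promoters (16.1%), beside 1.92% of all 35116 promoters. The letters CCGGAAG, read by ETS factors such as GABP, were found in 17 (27.4%, beside 10.3%), the YY1 letters AAGATGG in 14 (22.6%, beside 5.84%) and the CREB letters in 4 (6.45%, beside 1.85%). The 10 members with the NRF1 letters were ATP5F1C, ATP5MC2, ATP5ME, ATP5PF, COX6A1, NDUFA8, NDUFB4, NDUFS6, NDUFS7 and SDHD. The promoters set beside them were not filtered by gene type, whereas the members are all protein coding. A match describes the letters of the window and no binding in these cells.

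Of the catalytic head of complex V and its shaft, 4 genes were measured. ATP5F1C encodes the γ subunit, the rotating shaft of the enzyme, and had 18.04, 18.23 and 18.45 in CA and 17.33, 17.85 and 18.03 in HD. All HD arrays lay just below the CA arrays (−0.51, SE 0.25, adjusted p = 0.807). ATP5F1A, the α subunit, had 14.56, 15.05 and 14.93 in CA and 14.36, 14.44 and 14.62 in HD, which overlapped (−0.37, SE 0.22, adjusted p = 0.858). ATP5F1B, the catalytic β subunit, had the identical value of 18.50 on 6 arrays of different groups, so that its range from 18.34 to 18.62 gives little room for a difference. ATP5F1D, the δ subunit, had 5.99, 6.27 and 6.51 in CA and 5.95, 6.12 and 7.11 in HD, which overlapped (0.13, SE 0.42). With the plate as a replicate block the HD difference of ATP5F1C was −0.83 (SE 0.29, adjusted p = 0.538), over 1.5 times that without the block. Of the stator and membrane parts, ATP5PB, ATP5PD and ATP5PO overlapped between HD and CA. ATP5MG overlapped too, with 14.73, 14.39 and 14.64 in CA and 14.07, 14.96 and 14.61 in HD. The similar gene ATP5MGL had 6.37, 7.15 and 7.35 in CA and 6.17, 6.39 and 6.81 in HD (−0.50).

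In complex I the 3 smallest p in HD belonged to NDUFB5, NDUFA9 and NDUFA3. NDUFB5, an accessory subunit of the membrane arm, had 13.21, 13.17 and 13.25 in CA and 12.15, 12.76 and 12.91 in HD. The HD arrays lay below CA, and the MD arrays (12.73, 13.19 and 13.18) overlapped with it (HD −0.61, SE 0.29, adjusted p = 0.792). NDUFA9, an accessory subunit at the junction of both arms, had 12.79, 12.64 and 12.93 in CA and 11.94, 12.53 and 12.60 in HD, also without overlap (−0.43, SE 0.24, adjusted p = 0.834). NDUFA3, another accessory subunit, went the other way, with 12.80, 13.02 and 13.35 in CA and 13.42, 13.81 and 13.78 in HD (0.61, SE 0.33, adjusted p = 0.834). It also had the smallest p of complex I for the slope, at 0.09 per 10 ppm (SE 0.03, adjusted p = 0.544). A second, dimmer row of NDUFA3 differed by −0.08 in HD, so that its rows disagreed. With the plate as a replicate block the difference of the brighter row was 0.29 (SE 0.37).

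The subunits that carry the flavin and iron-sulphur centres of complex I were measured in part. NDUFV1, which binds NADH and flavin, had 10.28, 10.90 and 10.99 in CA and 9.79, 10.81 and 11.14 in HD (−0.14). NDUFV2, its iron-sulphur partner, had 12.81, 13.30 and 13.41 in CA and 12.65, 12.41 and 12.57 in LD. All LD arrays lay below CA and also below NEC, MD and HD, whose lowest array had 12.92. The LD difference was −0.63 (SE 0.24, adjusted p = 0.726), and in MD and HD it was 0.28 and 0.08. LD replicate 3 had the middle of the 3 LD values here. After scaling to equal bright genes LD replicate 3 had the highest of them, 12.97, close to the lowest CA array at 12.99. Under the plate block 0 members had an unadjusted p below 0.05 in LD. NDUFS3, a core subunit of the peripheral arm, had 8.70 to 8.86 in CA and 8.50 to 9.25 in HD. NDUFS7, which carries the last iron-sulphur cluster before ubiquinone, had signals of 3.94 to 5.51, around the negative controls, where the size of a difference is uncertain.

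**Figure D5:**
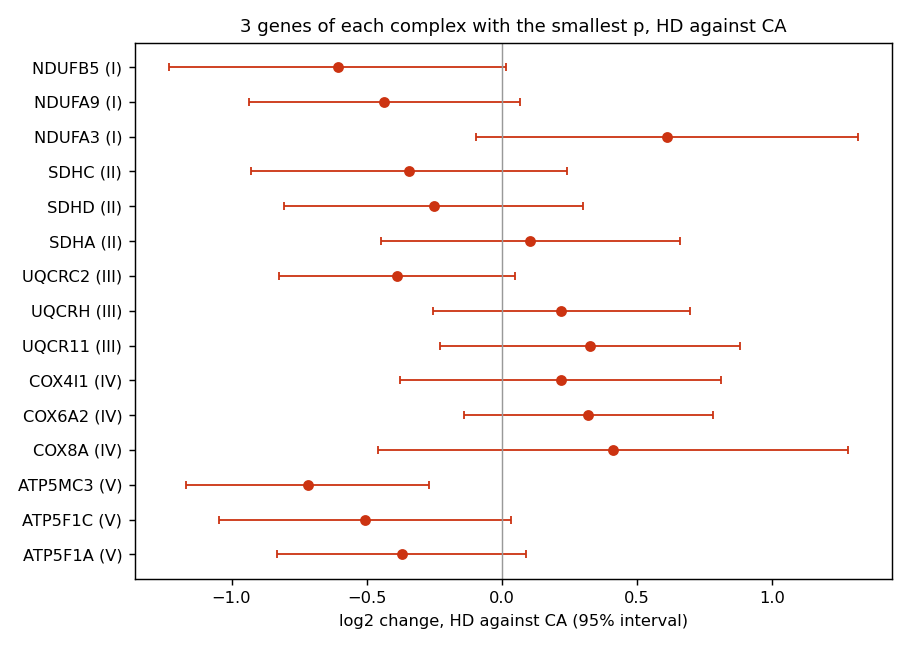
Log2 difference of HD from CA (horizontal axis) with its 95% interval, unadjusted, for the 3 genes of each complex with the smallest p (complex in parentheses). The interval of ATP5MC3 (−1.17 to −0.27) is the single one of the 15 that leaves out 0.

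Complex II was covered by 3 of its genes. SDHC, a membrane anchor that binds haem and ubiquinone, had 12.69, 12.99 and 13.13 in CA and 12.16, 12.20 and 12.62 in MD, so that all MD arrays lay below CA (−0.61, SE 0.28, adjusted p = 0.805). In HD it had 12.33, 12.36 and 13.08, with overlap (−0.34, SE 0.28, adjusted p = 0.924). With the plate as a replicate block the HD value was −0.71 (SE 0.32, adjusted p = 0.638). SDHD, the other anchor, had 11.43, 11.30 and 11.71 in CA and 10.91, 11.13 and 11.64 in HD (−0.25, SE 0.26). SDHA, the flavoprotein that oxidises succinate, had 10.91, 10.87 and 11.32 in CA and 10.92, 10.97 and 11.53 in HD (0.11, SE 0.26).

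In complex III, UQCRC2, a core subunit outside the electron path, had 16.99, 16.91 and 16.79 in CA and 16.29, 16.67 and 16.57 in HD. HD lay below CA without overlap (−0.39, SE 0.21, adjusted p = 0.825). Its partner UQCRC1 had 10.94, 11.15 and 11.33 in CA and 10.70, 11.30 and 11.41 in HD, a difference below 0.01 in size. The small subunits UQCR11 (0.33, SE 0.26) and UQCRH (0.22, SE 0.23), which supports the contact of cytochrome c with the complex, had higher means in HD with overlapping arrays. UQCRHL, a copy of UQCRH whose signal may not be separable from it, differed by 0.17 in HD and 0.30 in MD, beside 0.22 and 0.35 for UQCRH.

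In complex IV no gene separated HD from CA. In the other complexes NDUFS6 (HD above CA) and UQCRB (HD below CA) did so as well, beside the genes described before. COX8A, a small subunit of the complex, had 10.91, 11.26 and 11.60 in CA and 11.30, 11.71 and 11.98 in HD (0.41, SE 0.41, adjusted p = 0.946). COX4I1, the ubiquitous form of the subunit that carries regulation by adenine nucleotides, had 12.13, 13.22 and 13.06 in CA and 12.92, 13.09 and 13.04 in HD (0.22, SE 0.28). The tissue-restricted forms differed from their ubiquitous partners in their place relative to the negative controls. COX6B2 and COX7B2, forms known from testis, were the 2 members below the control level of 4.67 in every group, at 3.33 and 4.30 on average. COX4I2, linked to lung and low oxygen, ran from 4.26 to 5.33, COX8C from 4.34 to 5.12, and the muscle forms COX6A2 and COX7A1 from 4.64 to 5.75 and from 4.47 to 5.87. COX6A2 had the largest HD difference among them (0.32, SE 0.22, adjusted p = 0.893). Outside the rule, COXFA4 had signals of 15.69 to 16.68, and COXFA4L2, known as a hypoxia-induced gene, had 2.97 to 4.11, below the control level on every array.

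The ubiquitous partners stayed far above the controls in all groups. COX6A1 had 15.51, 15.56 and 15.81 in CA and 15.52, 16.10 and 15.81 in HD, COX6B1 14.38, 14.64 and 14.76 in CA and 14.53, 14.94 and 14.76 in HD. COX7B had 16.40 to 16.74 in CA and 16.14 to 16.73 in HD. COX7A2 (0.06) and COX7A2L (0.16), the latter an assembly factor of supercomplexes rather than a plain isoform, overlapped between HD and CA as well.

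In LD, 69 of 76 members had a lower mean than in CA, among them all 16 genes of complex V, all 8 of complex III and 31 of 33 of complex I. The median difference was −0.25, beside −0.15 for all protein-coding genes and −0.03 for all clusters. This leaned on LD replicate 3, the array with the lowest signal of bright genes. Without it the median was −0.08, and with arrays scaled to equal bright genes it was −0.14, with 18 members above CA. After NDUFV2, the genes with an unadjusted p below 0.05 were NDUFAB1, the mitochondrial acyl carrier protein, NDUFA5 and NDUFB2. By complex the smallest p belonged to UQCRC1 (−0.52, SE 0.28, adjusted p = 0.824), COX7A2 (−0.41, SE 0.27), ATP5MC1 (−0.36, SE 0.23) and SDHD (−0.26, SE 0.26).

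The comparison of NEC with CA asked what the air flow itself went with. Of the 76 members 63 had a lower mean without flow (median −0.18), while the median of the protein-coding genes was −0.03. With arrays scaled to equal bright genes the median was −0.12 and 21 members were higher. NDUFB4, an accessory subunit of complex I, had 12.73, 13.28 and 13.42 in CA and 12.33, 12.48 and 12.88 in NEC, which overlapped (−0.58, SE 0.23, adjusted p = 0.877). NDUFA1 had 14.41, 14.23 and 14.26 in CA and 13.70, 13.90 and 13.94 in NEC, without overlap, and NDUFA8, the third gene at this level, 10.08, 10.15 and 10.00 beside 9.09, 9.39 and 9.98. UQCRC1 had 10.61, 10.27 and 10.86 in NEC, below its 3 CA values (−0.56, SE 0.28, adjusted p = 0.927). ATP5MJ, a small membrane subunit of complex V, had 15.12, 14.84 and 14.97 in CA and 14.15, 14.35 and 14.80 in NEC (−0.54, SE 0.26, adjusted p = 0.917).

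Set against NEC in place of CA, HD had 55 of 76 members higher, with medians of 0.28 for complex I, 0.25 for complex III, 0.22 for complex IV, 0.06 for complex V and −0.05 for complex II. Against this control complex I had the highest median and that of complex V lay above 0, both unlike the comparison with CA. With limma, 0 members passed an adjusted p of 0.05, where the same rule called 321 of the 135750 clusters. At an unadjusted p below 0.05, 5 members lay above NEC and 2 below. The share of protein-coding genes was not computed for this comparison.

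Related mitochondrial genes were described from lists chosen with earlier results of these arrays known, and 0 genes of any list passed the adjusted p in HD, MD, LD or NEC against CA or in the slope. In HD the assembly factors of the complexes (42 of 47 measured) had a median of 0.01 and the mitochondrial ribosomal proteins (75 of 75) one of 0.10, with 55 above CA. The regulators of mitochondrial gene expression (18 of 19) had 0.09, the tricarboxylic acid cycle enzymes (16 of 18) −0.14 with 3 above CA, the electron carriers and other chain genes (15 of 15) −0.06 and the hypoxia-responsive and glycolytic genes (13 of 14) 0.04. At an unadjusted p below 0.05, where 5.4% of the protein-coding genes lay above CA in HD and 3.22% below, the lists of assembly factors, regulators and cycle enzymes held 4 genes above CA and 3 below. Those above were the assembly factors NDUFAF2 (0.91, SE 0.36) and COA8 (0.72, SE 0.27), and GABPB1 (0.69, SE 0.30), a subunit of GABP, and SSBP1 (0.69, SE 0.32), which binds single-stranded mitochondrial DNA. Those below were PPARGC1A, the coactivator of mitochondrial biogenesis (−0.81, SE 0.26, adjusted p = 0.547), and PDHA1 (−0.59, SE 0.24) and PDHB (−0.56, SE 0.21), which form the E1 part of pyruvate dehydrogenase. In MD, PDHA1 (−0.67) and PDHB (−0.53) were below CA at this level too, with the same CA arrays. Of the 13 hypoxia-responsive and glycolytic genes 7 had a higher mean in HD than in CA, with 4 above and 1 below at the unadjusted level. Those above were BNIP3, a mitochondrial protein of mitophagy (0.87, SE 0.25, adjusted p = 0.412), the glucose transporter gene SLC2A1 (0.80, SE 0.32), PGK1 of glycolysis (0.60, SE 0.24) and the growth factor VEGFA (0.57, SE 0.25), and the one below was ADM, which encodes adrenomedullin (−0.90, SE 0.32). The mitochondrial ribosomal proteins held 3 above and 0 below CA in HD at this level. In LD the ribosomal proteins had a median of −0.29, with 8 of 75 below CA at the unadjusted level, beside 7.62% of the protein-coding genes. With arrays scaled to equal bright genes this became 2 of 75 and a median of −0.18. The share of protein-coding genes was not computed with this scaling.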

How the data were processed

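A549 RNA was measured on Affymetrix Clariom D arrays. With the Transcriptome Analysis Console 4.0 the authors applied RMA; what they deposited are log2 signals per transcript cluster (138745, of which 2995 controls were left out). The study's methods give annotation release na36 on hg38 for the probes. Rows were named from the platform annotation, with symbols updated through RefSeq (36176 rows with 1 symbol, 1119 with several). An item that the membership rule would take is not reported here.

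One model with 5 group means was fitted to 15 arrays with limma 3.58.1 (R 4.3.3), with 10 residual and 6.32 prior degrees of freedom and Benjamini-Hochberg adjustment over 135750 clusters. The slope used the 12 arrays with a concentration. On simulated arrays with 50 altered clusters per size, the HD against CA test (135750 clusters) recovered 7 of those altered 2-fold, 45 of those altered 4-fold, 49 at 8-fold and 50 at 16-fold. The 3 arrays per group limit the precision.

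The members, gene lists and tests were chosen with earlier results of these data known. Named were, per complex, the 3 genes with the smallest p in HD against CA, and 1 by this rule in every other comparison. So were any gene past an adjusted p of 0.05, the catalytic subunits and the isoform sets. NDUFA1, NDUFA8, NDUFAB1, NDUFA5, NDUFB2, NDUFS6, UQCRB, ATP5F1D and genes of the related lists were named after their values were seen. Alternatives covered the plate as a block, the arrays in the fit, the control, scaling, normalisation, a filter on dim rows, the row per gene, the moderation, the criteria of the study and each array left out. Exposure plates pair CA and NEC by the labels: deviations on the same plate correlated at 0.26, 0.07 and 0.20 over protein-coding genes. Over the members these values were 0.10, −0.18 and 0.18. Pairs from different plates ran from −0.22 to 0.06 over protein-coding genes and from −0.23 to 0.18 over members.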

Additional observations from a re-analysis of the deposited data

How the results depend on the processing

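No member passed the call in any of the alternatives run (74 members once dim clusters, COX6B2 and COX7B2 among them, were left out), and all that had been listed were run. With the exposure plate as a replicate block the median slope of the members was −0.0153 per 10 ppm in place of 0.0184, COX8A in HD was −0.0185 and SDHA in HD −0.131, and no call changed. With NEC in place of CA, NDUFA11 in MD was 0.228, SDHA in HD −0.018 and UQCRC1 in LD 0.0415, each on the other side of 0. The next settings were chosen after seeing the data: with arrays scaled on bright genes, SDHA in HD was −0.0257 with the plate as a replicate block, −0.0679 without HD replicate 3 and −0.0888 without CA replicate 2, and COX4I1 in HD was −0.0901 without CA replicate 1. On the deposited scale, leaving out 1 array at a time gave SDHA in HD −0.0893 to 0.2495 and COX4I1 in HD −0.1172 to 0.4249. The causes were not tested. The median of the members then lay between −0.08 and 0.20 in HD, −0.23 and 0.11 in MD, −0.35 and −0.08 in LD, and −0.30 and −0.09 in NEC. The number of members below CA at an unadjusted p below 0.05 ran from 1 to 3 in HD (3 without HD replicate 3 or CA replicate 1), 1 to 7 in MD (7 without MD replicate 3, 4 without CA replicate 1), 0 to 8 in LD (8 without CA replicate 1, 0 without CA replicate 2) and 0 to 5 in NEC (5 without NEC replicate 3 or CA replicate 1). For these counts the share of protein-coding genes was not computed with an array left out. Standard errors of 0.16 to 0.42 bound what 3 arrays per group resolve. Members near the negative controls or at the top of the scale are less certain.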
